A study of Mus musculus with 7 samples.

Results

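The 10 genes described here regulate entry into mitosis or exit from it. They were measured in mouse embryonic fibroblasts (MEFs) with and without a deletion on chromosome 4. They were chosen by name, with earlier results of these data known, and matched by Ensembl identifier. All 10 are among the 15531 genes counted in the RNA-seq data. Plk1, Aurka, Cdc25b and Cdc25c act at mitotic entry, and Tpx2, which activates Aurora A on the spindle, is grouped with them. Cdc20, Fzr1, Ube2c and Pttg1 act at anaphase and mitotic exit, and Fbxo5 is set beside them because it inhibits the same ubiquitin ligase, although it does so before mitosis. RNA came from 7 primary MEF lines at passage 4, taken shortly after confluency and grown from embryos of embryonic day 13.5. The 4 Df/+Bl6 lines carried the deletion at band E2 on a chromosome from 129S5/SvEvBrd and an intact C57BL/6J homologue. The 3 control lines, +129/+Bl6, had the same mixed background with both homologues intact. The labels give every line the same cross, of male chimeras with a deletion and a duplication chromosome to C57BL/6J, whereas the methods give that cross for Df/+Bl6 and call the controls F1 hybrids, so shared parents are not certain, and no litter is given.

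Entry into mitosis depends on Cdk1 bound to a B-type cyclin. Wee1 and Pkmyt1 hold that kinase back by phosphorylating it, and the Cdc25 phosphatases remove the block. Aurora A, helped by Bora, switches on Polo-like kinase 1, which in turn promotes Cdc25 activity. Exit depends on the anaphase-promoting complex or cyclosome (APC/C), a ubiquitin ligase that works with the coactivator Cdc20 and then with Fzr1, also called Cdh1, to destroy securin, cyclins, Plk1, Aurora A and Tpx2. Fbxo5, also called Emi1, holds the APC/C inactive in interphase. Most of these genes are transcribed mainly in G2 and M phase, and CCAAT boxes and the cell cycle genes homology region (CHR) are known elements of their promoters.

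Promoter sequence is shown because CCAAT and CHR elements are known in promoters of such genes. The 3 genes shown are those whose start site was the outermost RefSeq start and left 150 bases with at most 30 inside a GENCODE transcript. Matches played no part in that choice. RefSeq promoters on GRCm38.p6 were matched for 8 of the 10 genes, all but Tpx2 and Cdc25c. The letters searched, on both strands and in the 250 bases before the start site, were CCAAT and the CHR forms TTTGAA and TTCGAA. The windows below hold 150 bases each, written 5′ to 3′ on the strand of the gene, with matches in capitals. A match on the other strand therefore reads ATTGG or TTCAAA. Plk1 is at chr7:122159285-122159434 on the plus strand, Cdc20 at chr4:118437344-118437493 on the minus strand and Ube2c at chr2:164769778-164769927 on the plus strand.
Plk1: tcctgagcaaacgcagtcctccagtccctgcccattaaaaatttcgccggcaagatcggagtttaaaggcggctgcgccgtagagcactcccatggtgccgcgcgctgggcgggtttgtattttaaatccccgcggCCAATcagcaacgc
Cdc20: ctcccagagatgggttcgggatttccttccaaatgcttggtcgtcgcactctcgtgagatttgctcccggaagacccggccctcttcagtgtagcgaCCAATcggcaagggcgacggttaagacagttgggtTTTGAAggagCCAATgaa
Ube2c: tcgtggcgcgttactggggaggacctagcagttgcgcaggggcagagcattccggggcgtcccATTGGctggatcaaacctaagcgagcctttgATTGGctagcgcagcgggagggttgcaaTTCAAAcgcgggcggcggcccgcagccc

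CCAAT was found in 7 of the 8 promoters, all but that of Pttg1, and in 33.8% of the 32851 promoters in the RefSeq table. It occurred at least 2 times in 4 of the 8, those of Aurka, Cdc20, Ube2c and Fbxo5, against 10.1% of all promoters. Either CHR form was found in 2 of the 8, Cdc20 and Ube2c, and in 17.1% of all promoters. In Cdc20 the TTTGAA lay at -18 to -13 from the start site, between CCAAT matches at -53 to -49 and -8 to -4. In Ube2c the TTTGAA was on the other strand, at -29 to -24, and 6 CCAAT matches were counted, of which 2 overlap each other. Plk1 had a single CCAAT at -14 to -10. Fbxo5 had 3 CCAAT matches on the other strand, but the outermost GENCODE coding transcript of that gene starts 135 bases before the RefSeq start site, so these matches lie inside it. The same holds for Fzr1, where that distance was 146 bases. It was 31 bases for Ube2c and 9 for Cdc20, so the TTTGAA of Ube2c and the CCAAT of Cdc20 nearest to the start site also lie inside a GENCODE transcript. For Aurka, Pttg1 and Cdc25b the start site in the table lies 316, 1482 and 512 bases inside the outermost RefSeq transcript. The 150 bases before the start site of Aurka also overlap another RefSeq gene, Cstf1. A match describes letters in a window and not a bound site.

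The expression values are mean normalized counts of read pairs per gene for each genotype, deposited only for genes that the authors called different between genotypes with DESeq at a false discovery rate of 0.05. Such a gene is called listed here. Of the 10 regulators, 7 were listed when reads of both alleles were summed, and all 7 were higher in Df/+Bl6. The background was 8.67% of all counted genes listed and 5.13% listed and higher. The 10 genes were chosen with earlier results of these data known. This count and those for each allele are therefore a description and not independent evidence. The median log2 ratio of Df/+Bl6 over +129/+Bl6 was 0.97 over the 7 genes, with a range of 0.60 to 1.66. The 796 genes listed as higher had a median of 0.80, and the 550 listed as lower had a median of -0.81. The genes not listed were Fzr1, Pttg1 and Cdc25b. Their levels are not given here, and an unlisted gene is one without a call, not one shown to be equal. The deposited value columns carry no line names and were not used, so the ratios carry no standard error and the spread between lines enters only through the authors' test. In bulk RNA, more cells in G2 and M phase and more RNA per cell cannot be told apart.

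At mitotic entry, Plk1 (ENSMUSG00000030867), the Polo-like kinase that acts on centrosomes, Cdc25 and the spindle, lies at chr7:122159435-122169884 on GRCm38. Its mean normalized count was 9938 in the Df/+Bl6 lines and 5185 in the +129/+Bl6 lines, a 1.92-fold difference with a log2 ratio of 0.94. Plk1 was, in addition, one of the genes picked earlier on these same samples as differing, so its direction too is not independent evidence.

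Aurka (ENSMUSG00000027496, chr2:172356190-172370886) encodes Aurora A, the centrosome kinase that activates Plk1. Its means were 7731 in Df/+Bl6 and 3636 in +129/+Bl6, a 2.13-fold difference with a log2 ratio of 1.09. Tpx2 (ENSMUSG00000027469, chr2:152847964-152895321) encodes the microtubule protein that activates Aurora A on the spindle under control of Ran. It had the highest counts of the group, with means of 23337 and 11876, and its ratio was 1.97-fold, or 0.97 on the log2 scale. Kinase and activator thus both rose. Per kilobase of the longest annotated transcript, the ratio of Tpx2 to Aurka was 1.32 in Df/+Bl6 and 1.43 in +129/+Bl6. Whether these ratios differ could not be tested.

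Of the Cdc25 phosphatases among the regulators, Cdc25c had a call and Cdc25b had none, and without a level for Cdc25b they cannot be compared. Cdc25c (ENSMUSG00000044201, chr18:34732993-34751564), a target of Plk1 in the loop that activates Cdk1, had means of 1163 in Df/+Bl6 and 497 in +129/+Bl6. That was a 2.34-fold difference, with a log2 ratio of 1.23, on the lowest counts of the 7 listed regulators. Cdc25b (ENSMUSG00000027330, chr2:131186436-131198511), which acts on Cdk1 at the centrosome before mitosis, was counted but not listed. Of the 5 genes grouped under entry, Tpx2 included, 4 were listed, with a median log2 ratio of 1.03.

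Among the genes of the exit machinery and its inhibitor, the largest ratio was that of Fbxo5 (ENSMUSG00000019773, chr10:5799158-5805465), the interphase inhibitor of the APC/C. Its means were 3109 in Df/+Bl6 and 987 in +129/+Bl6, a 3.15-fold difference with a log2 ratio of 1.66. That ratio ranked 19 among the 796 genes listed as higher.

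Cdc20 (ENSMUSG00000006398, chr4:118432901-118437343), the APC/C coactivator of early mitosis and the target of the spindle checkpoint, had the smallest ratio. Its means were 8820 and 5811, a 1.52-fold difference with a log2 ratio of 0.60 and rank 681 of the 796. Ube2c (ENSMUSG00000001403, chr2:164769929-164772902), the ubiquitin-conjugating enzyme that starts ubiquitin chains on APC/C substrates, had means of 6121 and 3373, a 1.81-fold difference with a log2 ratio of 0.86. The coactivator and the enzyme thus both had smaller ratios than the inhibitor, a difference that could not be tested. Per kilobase of the longest annotated transcript, the ratio of Fbxo5 to Cdc20 was 0.326 in Df/+Bl6 and 0.157 in +129/+Bl6. That of Ube2c to Cdc20 was 0.568 and 0.475. The size of these ratios rests on the lengths used.

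Fzr1 (ENSMUSG00000020235, chr10:81366879-81378370), the APC/C coactivator of late mitosis and G1, and Pttg1 (ENSMUSG00000020415, chr11:43420244-43427463), the securin that holds separase inactive until anaphase, were counted and not listed. Of the 5 genes of exit and its inhibitor, 3 were listed, Fbxo5, Ube2c and Cdc20, with a median log2 ratio of 0.86.

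**Figure D1:**
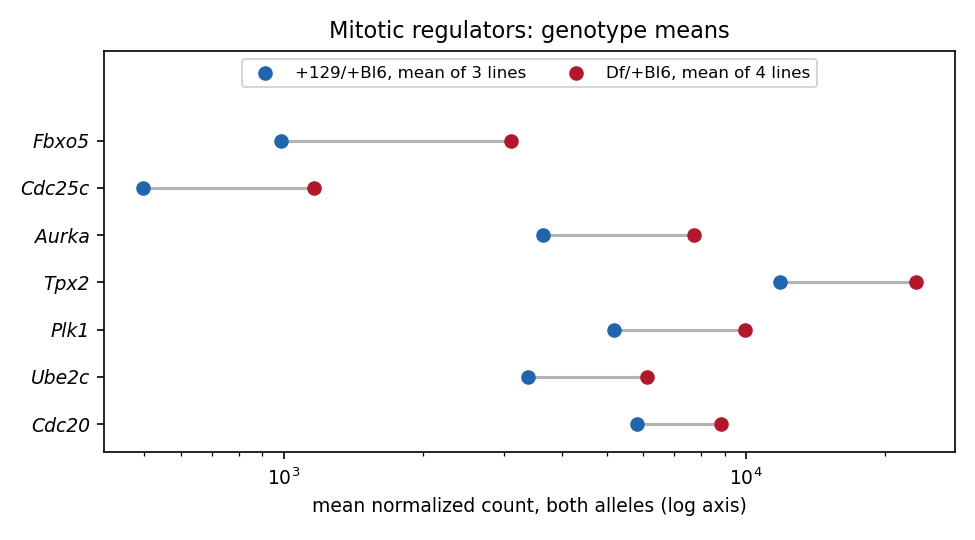
Mean normalized count over both alleles (log axis) for the 7 listed regulators, with the +129/+Bl6 mean of 3 lines in blue and the Df/+Bl6 mean of 4 lines in red, joined by a line and ordered by ratio. The Df/+Bl6 mean is the higher in every row, and the gap is widest for Fbxo5 (987 to 3109) and narrowest for Cdc20 (5811 to 8820).

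The plot of genotype means shows no single order of ratio and level. The largest ratios, of Fbxo5 and Cdc25c, belonged to the regulators with the lowest counts, but Tpx2, with the highest, lay in the middle. Relative to all listed genes, 5 of the 7 had a mean over the lines above the median of 2955 normalized counts. Levels of different genes can be compared only per length of transcript, and which transcript was expressed was not determined. The longest in the annotation, coding or not, was used, with 2191 bases for Ube2c. The orders below rest on that choice and could change with other lengths. Divided by the longest transcript in kilobases, the Df/+Bl6 means ran from 5346 for Tpx2 through 4919 for Cdc20, 4511 for Plk1, 4058 for Aurka, 2794 for Ube2c and 1603 for Fbxo5 to 599 for Cdc25c. In +129/+Bl6 the order was the same except that Cdc20, at 3241, stood above Tpx2, at 2721. The other values there were 2354 for Plk1, 1909 for Aurka, 1540 for Ube2c, 509 for Fbxo5 and 256 for Cdc25c. Which neighbours in these orders differ beyond the spread between lines could not be tested.

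**Figure D2:**
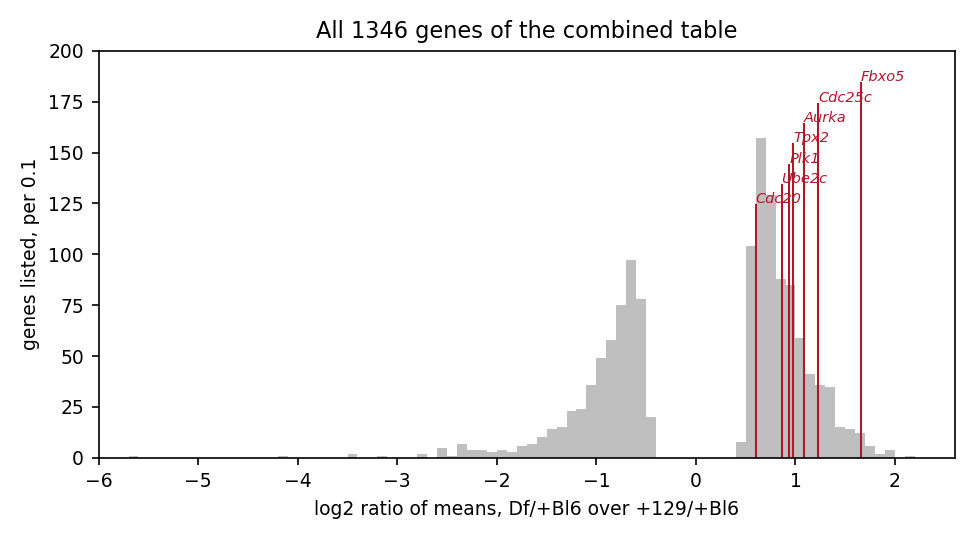
Histogram of the log2 ratio of means, Df/+Bl6 over +129/+Bl6, for all 1346 listed genes in bins of 0.1, with the 7 listed regulators as red lines whose heights only separate the labels. All 7 lie in the right-hand part, from Cdc20 at 0.60 to Fbxo5 at 1.66.

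Among the 796 genes listed as higher, whose log2 ratios ran from 0.47 to 2.11, 6 of the 7 regulators lay above the median. Fbxo5 exceeded 97.6% of them and Cdc25c 85.6%. The values were 78.3% for Aurka, 69.0% for Tpx2, 65.6% for Plk1 and 56.5% for Ube2c. Cdc20, the exception, exceeded 14.4%. A log2 ratio of at least 1 was reached by 3 of the 7, Fbxo5, Cdc25c and Aurka. The median log2 ratio of all 1346 listed genes was 0.61, so the listed genes as a whole lean towards Df/+Bl6. Measured from that median instead of from 0, Cdc20 was at -0.0053 and the other 6 stayed positive, up to 1.05 for Fbxo5.

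Reads that cover a difference between the strains were also compared for each allele. These tables were normalized separately, so their levels are not set against the combined ones. The paper states a mapping bias, with more reads placed on C57BL/6J transcripts. Levels of the alleles are therefore not set against each other either. Plk1 and Aurka, 2 of the 10 regulators, were listed for the 129S5 allele. The background was 1.65% of the genes counted in the combined comparison, and 0.856% listed as higher. For the C57BL/6J allele, 3 of the 10 were listed, Plk1, Aurka and Ube2c, against a background of 2.09% and of 1.16% listed as higher. A gene without enough strain-specific reads could not be called in these tables, so a missing entry says nothing of the allele. The background shares are taken over all counted genes, including such genes, and so understate the share among genes that could be called. All the entries were higher in Df/+Bl6.

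For Plk1, the mean normalized count of the 129S5 allele was 2165 in Df/+Bl6 and 1111 in +129/+Bl6, a log2 ratio of 0.96. That of the C57BL/6J allele was 5110 and 2571, a log2 ratio of 0.99. Both alleles of Plk1 therefore rose, with log2 ratios 0.02 and 0.05 above the combined one. For Aurka, the 129S5 allele had means of 991 and 486 with a log2 ratio of 1.03, and the C57BL/6J allele had means of 1762 and 771 with a log2 ratio of 1.19. For Ube2c, the C57BL/6J allele had means of 1027 and 649 and a log2 ratio of 0.66, which is 0.20 under the combined one. No test of a difference between alleles was possible from these means.

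**Figure D3:**
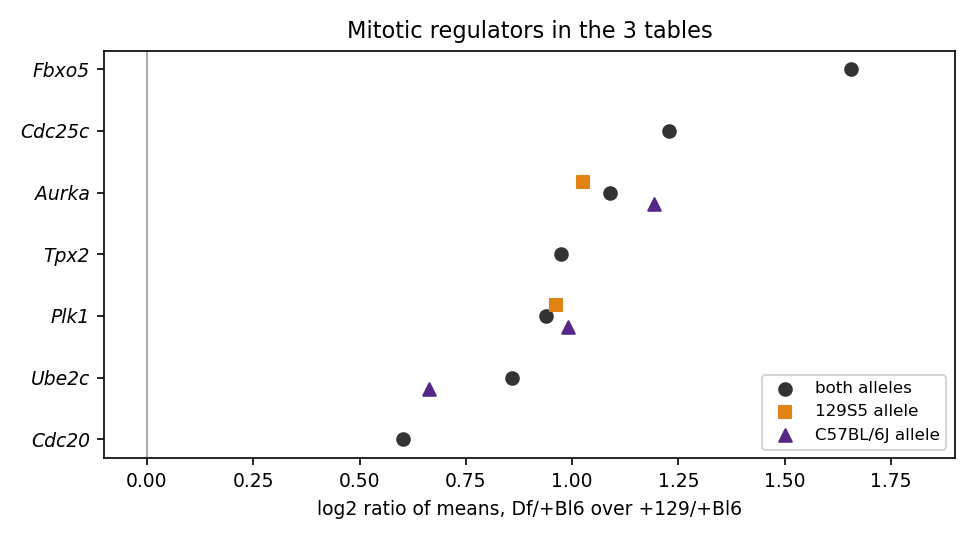
Log2 ratio of means, Df/+Bl6 over +129/+Bl6, for the 7 listed regulators with reads of both alleles summed (circles), for the 129S5 allele (squares) and for the C57BL/6J allele (triangles), where listed. All entries lie right of 0, and the allele values of Plk1 (0.96 and 0.99) lie close to the combined 0.94.

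By position, the 10 genes lie on 6 chromosomes, with 4 of them, Aurka, Tpx2, Ube2c and Cdc25b, on chromosome 2. None lies in the deleted interval between Rere and Ski. Cdc20 is the 1 member on chromosome 4, and on NCBI37/mm9 it lies 31.5 Mb before Rere. Cdc20, Fzr1, Ube2c, Cdc25b and Cdc25c each overlap a gene on the opposite strand in that annotation (Elovl1, F630110N24Rik, Tnnc2, Spef1 and Gm3550), and the other 5 overlap none. The libraries were stranded, but whether the counting used strand is not stated, so reads of the overlapping parts of these genes are uncertain.

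Around the 10 regulators, 9 lists of partners, substrates and upstream genes held 112 counted genes, some in more than 1 list. Of these, 50 (44.6%) were listed, all of them higher in Df/+Bl6, with a median log2 ratio of 1.04. As with Plk1, 8 of the 112 had been picked earlier on these samples. Without those 8, 42 of 104 were listed, and all 42 were higher, but the lists too were drawn up with results of these samples known, so these counts are a description and not independent evidence. These counts are to be read beside the 8.67% of all genes.

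Genes of the mitotic entry switch were listed in 9 of 13 cases, including Cdk1 and its cyclins Ccnb1 and Ccnb2. Their log2 ratios ran from 0.64 for Cdc25a, the third Cdc25 phosphatase, with means of 5263 and 3386, to 1.53 for Chek1, the checkpoint kinase that restrains Cdc25, with means of 1549 and 536. Wee1, Ensa, Arpp19 and Chek2 were not listed. Of the other Polo, Aurora and NIMA kinases, 3 of 8 were listed. Plk4, the kinase of centriole duplication, had a log2 ratio of 1.45 with means of 3735 and 1369. Aurkb, the kinase of the chromosomal passenger complex, had 1.02 with means of 2392 and 1182, and Nek2, a centrosome kinase, had 0.99 with means of 3801 and 1918. The unlisted Polo kinases were Plk2 and Plk3. Of the genes that work with Aurora A and Tpx2 at the spindle, 11 of 22 were listed, from 0.60 for Haus1, an augmin subunit (means of 1328 and 878), to 1.62 for Kif11, the motor that separates spindle poles (means of 6282 and 2041).

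On the exit side, none of the 14 counted core subunits of the APC/C was listed. Of its other regulators with separase, 6 of 10 were listed and Ube2s, Bub3, Mad1l1 and Mad2l1bp were not. The log2 ratios ran from 0.91 for Espl1, the separase that securin inhibits (means of 4069 and 2167), to 1.62 for Bub1, a kinase of the spindle checkpoint (means of 4278 and 1388). The 23 counted genes whose proteins the APC/C destroys leave out the regulators, of which Pttg1 (securin), also a substrate, had no call. Of the 23, 22 were listed, and Cdca3 was not. Their log2 ratios ran from 0.79 for Tk1, thymidine kinase, with means of 3967 and 2287, to 1.91 for Cenpf, a kinetochore protein, with means of 8564 and 2283. Of 10 phosphatase genes of mitotic exit, only Cdc14a was listed, at 0.70 with means of 593 and 364. None of the 5 genes of the SCF ubiquitin ligase that marks Fbxo5 and Cdc25 proteins was listed. Beside the 8.67% of all genes, the counts for the core subunits, the phosphatases and the SCF genes are near the background and say nothing of these lists, and the difference between lists was not tested.

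Of 14 genes for regulators that bind CCAAT, CHR or E2F elements of such promoters, 5 were listed. Mybl2 (B-Myb) had a log2 ratio of 1.35 with means of 3691 and 1446, and Lin9, a subunit of the complex that carries it, had 1.30 with means of 1999 and 814. Foxm1, the forkhead factor of G2 genes, had 0.96 with means of 12074 and 6212. Rbl1 (p107) had 0.91 with means of 2715 and 1442, and Lin54, the subunit that binds CHR elements, had 0.83 with means of 3081 and 1732. The subunits of the CCAAT-binding factor, Nfya, Nfyb and Nfyc, were counted and not listed.

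**Figure D4:**
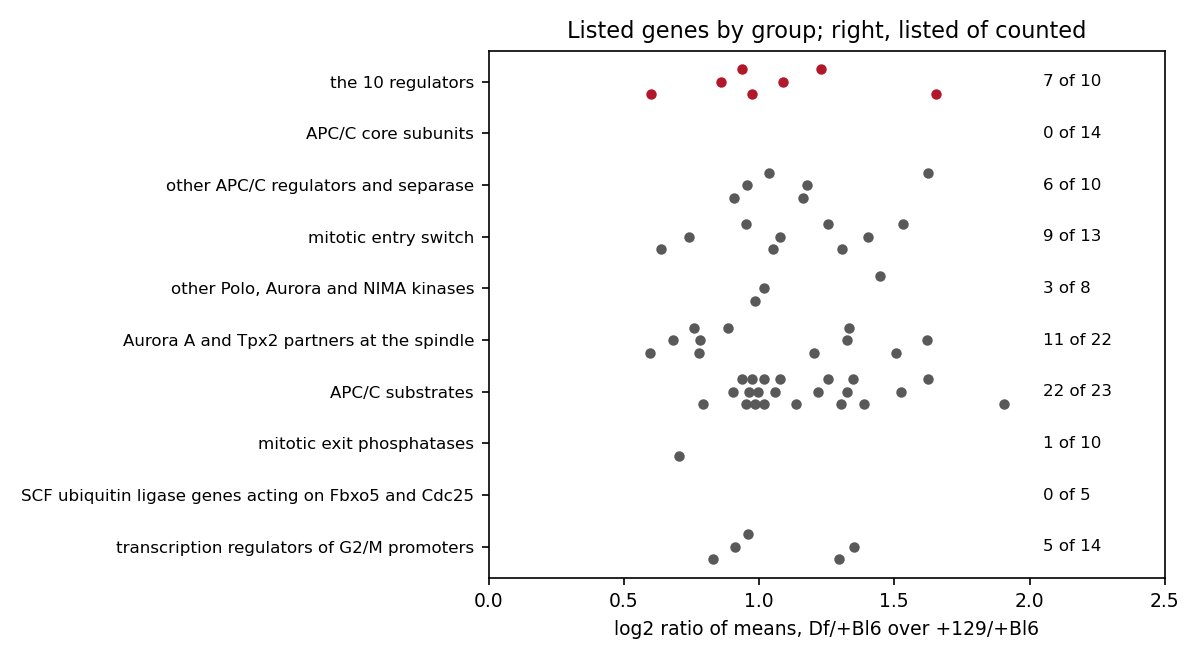
Log2 ratio of means, Df/+Bl6 over +129/+Bl6, for every listed gene of the 10 regulators (red) and of the 9 related lists (grey), 1 point a gene with vertical offsets only to separate points, and the number listed of the number counted at the right. All points lie above 0, and the APC/C core subunits (0 of 14) and the SCF genes (0 of 5) have none.

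All 10 fibroblast markers looked up were counted. Of these, 1 was listed, Fn1 (fibronectin), and it was lower in Df/+Bl6, with means of 2121647 and 3418220 and a log2 ratio of -0.69. Sox10, S100b and Ngfr, which mark Schwann cells, were lower in Df/+Bl6, with log2 ratios of -1.53, -2.32 and -1.59, and none of the 3 was at 0. No macrophage, endothelial, epithelial or skeletal muscle marker was listed, of 6, 5, 4 and 4 counted. Beside the 8.67% of all genes, these counts and that of the fibroblast markers are near the background and say nothing of these cell types. The part of any of the cell types in the differences of the mitotic regulators was not tested.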

How the data were processed

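Stranded, paired-end polyA+ libraries of the 7 lines were sequenced on the Illumina GA IIx. Per the methods, the authors mapped with GSNAP, allowing no mismatch, against C57BL/6J transcripts (Ensembl release 72, GRCm38) and their 129S5/SvEvBrd counterparts, used the longest transcript of each gene, kept unique best locations with both mates on the same gene and left out genes with under 10 reads per allele. The deposited signal values are read-pair counts that the authors scaled by DESeq size factors and then averaged within a genotype, in 3 tables of called genes (both alleles, 129S5, C57BL/6J). These tables also hold the authors' fold changes and p-values, which were not used. Which mean belongs to which genotype was read from the overall mean, which equals the average weighted by 4 and 3 lines in all 1346, 257 and 326 genes within 0.01%. Log2 ratios were computed from the means with no pseudocount.

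A file of normalized counts has 9 unnamed columns of values. These were not used, and its 15531 identifiers served as the list of counted genes. The depth per line is therefore unknown, and the limma test of the lines, the levels of unlisted genes and the leaving out of lines were not run. Shares for the alleles refer to the genes of the combined comparison, which hold all but 1 identifier of the allelic tables. The planned search for destruction motifs in the proteins was not run. Positions and promoters are from RefSeq (GRCm38.p6), transcript lengths and overlaps from GENCODE vM1 (NCBI37/mm9), and the longest transcript there stood for the one counted.

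The members and lists were chosen with earlier results of these data known. Named are all 10 regulators and, from each other list, the listed genes with the highest and lowest log2 ratio, or all where 5 or fewer were listed. Part of the Schwann cell marker list is not reported here, so the genes named from it do not describe the list. Other genes, such as those named as not listed, were chosen after the values were seen. The ratio and motif search were tested on 200 simulated cases each. Python 3.11.15, numpy 2.4.6, pandas 2.3.3 and matplotlib 3.10.9 were used.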

Additional observations from a re-analysis of the deposited data

How the results depend on the processing

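With log2 ratios of at least 1 in either direction, 3 of the 7 regulators remained in the combined comparison, 1 of 2 for the 129S5 allele and 1 of 3 for the C57BL/6J allele. With a mean of at least 1000 normalized counts, 6, 1 and 2 remained. No share of all genes at these cut-offs is given, so these counts cannot be set against a background. The median log2 ratio of 0.97 was also 0.97 with a pseudocount of 10 or 100, 0.99 over the regulators listed for either allele, and 0.37 after re-centring on the median of all listed genes, which moves every ratio by 0.61. That common shift turns the sign of any positive ratio under 0.61, and it put Cdc20 at -0.0053. The median was taken over genes already called, so it is not a normalization offset. A pseudocount cannot turn a sign. Neither the shift nor the pseudocounts therefore bear on the stability of the directions. The allele tables, which hold part of the same reads, gave positive ratios for the regulators listed there. No line was left out and no paired analysis was possible because the columns of values carry no names and the lines of the 2 genotypes share no numbers. All statements are therefore limited to means that the authors called different, with depth unknown.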
